A study of Lytechinus variegatus with 23 samples.

Results

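Homeobox genes encode transcription factors that bind DNA through a homeodomain and set regional identity in animal embryos. Their members here were chosen by name: every gene ID whose symbol, borrowed from the sea urchin Strongylocentrotus purpuratus, belongs to the Hox, Nk, Pax, Lhx, Six-type, Pitx, Irx or Brn families or is 1 of a list of single regulators such as Otx, Gsc, Not and Cdx. The rule found 67 of 27231 gene IDs, carrying 53 distinct symbols. Of these, 3 matched by spelling alone, namely Paxillin, a focal adhesion protein, and 2 IDs named Paxbp1L for a Pax-binding protein. The other 64 carry homeobox or paired-box names. The rule reads names alone and uses no measured value, though it was set with earlier results of these data known.

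The libraries came from whole Lytechinus variegatus embryos, another sea urchin. Embryos treated with alizarin red, a stain for mineralised tissue that complexes calcium, were set against control embryos at 12, 18, 24 and 30 hours post fertilisation (hpf). Each treatment and time had 3 libraries, A, B and C, except alizarin at 18 hpf, which had B and C, so there were 23 in all. The dose, the time of exposure and what the controls received are not given in the sources used here, nor whether the letters are separate cultures. A p-value here therefore rests on how far libraries of a group scatter, and that scatter may be technical.

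In the urchin embryo, homeobox genes act in nested regional networks. Nodal signalling on the oral (ventral) side turns on Not and Gsc, while BMP signalling reaches the aboral (dorsal) side, where Msx, Dlx, Irx and Hmx are used. Six3 and Hbn mark the anterior neuroectoderm, Lox (the urchin Pdx gene) and Cdx pattern the gut as ParaHox genes, and Pax genes serve coelomic mesoderm and neural precursors. Most Hox genes are used little before the adult rudiment forms, with Hox7 and Hox11/13b among those active in the embryo.

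Total counts per library ran from 8194215 to 11730004. The members together took between 0.373% and 0.415% of all counts at 12 hpf. At 30 hpf they took 0.131% to 0.171% in alizarin embryos and 0.174% to 0.188% in control embryos, ranges that did not overlap. These shares are of raw counts, while the levels below use scaled library sizes. Alizarin A and C at 30 hpf had similar raw totals (10152050 and 9881261). Yet 972 reads of Not in A gave a higher scaled level than 1227 in C. The gap at 30 hpf is thus stated for raw totals alone, and shares on scaled sizes were not tested. Within some groups 1 library stood apart from the other 2. Control library A at 12 hpf was the odd one for 36 of 47 members (76.6%, against 46.7% of all genes). Control B at 30 hpf was so for 32 members (68.1%, against 44.4%), control C at 18 hpf for 28 (59.6%, against 49.3%) and alizarin C at 24 hpf for 27 (57.4%, against 53.0%). Markers of skeletogenic cells, pigment cells, gut, apical plate and ciliated cells each had reads in every group, while no ID matched the neuronal marker SynB. Beside the alizarin results, the skeletogenic markers Alx1, Msp130 and Sm50 summed to 673 to 774 CPM (counts scaled to a common library size) in alizarin embryos at 24 hpf, against 1362 to 2502 in control embryos. At 30 hpf they summed to 635 to 1208 CPM, against 1213 to 1347. The pigment markers Gcm and Pks1 summed to 689 to 1015 CPM in alizarin embryos at 24 hpf, against 1873 to 2332 in control embryos, and at 30 hpf to 199 to 395 CPM, against 808 to 983. At 30 hpf the 3 apical plate IDs (FoxQ2_1 in 2 copies and Tph) summed to 211 to 247 CPM, against 18.2 to 19.9. Most of this difference lay in the FoxQ2_1 copies, with means of 129 and 82.6 CPM in alizarin embryos, against 3.73 and 2.94 in control embryos. The 4 gut IDs overlapped, at 1309 to 1645 CPM in alizarin and 1309 to 1534 CPM in control embryos, as did the 4 ciliary Tektin IDs (1538 to 2080 and 1387 to 1718 CPM). The muscle gene MyoD had 0 to 0.0986 CPM in alizarin embryos at 18 hpf, against 9.25 to 11.8 in control embryos, and at 30 hpf 0.456 to 1.28 CPM, against 3.15 to 3.70. Of these IDs, 1 of 3 skeletogenic ones was called (edgeR adjusted p under 0.05) at 24 hpf and 1 of 2 pigment ones at 30 hpf, both lower. At 30 hpf 2 of 3 apical ones were called, the FoxQ2_1 copies, both higher. Tph was not called, and none of the gut, ciliary or muscle IDs was. At 12 and 18 hpf none of these IDs was called. Of all genes tested, 0.842% were called at 24 hpf (0.722% lower) and 3.32% at 30 hpf (1.12% higher and 2.2% lower). The part of these cell types in the results below was not tested, and in bulk RNA fewer cells of a type and less RNA per cell cannot be told apart.

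After a filter on low counts, 47 of the 67 members were tested, 44 of them homeobox or paired-box genes, among 18419 genes in all. The 20 left out had between 0 and 105 reads over all libraries together, and none passed 2.18 CPM in any library. They were 10 of the 14 Hox IDs, 4 IDs named Pax1/9, PaxA, 2 Six4, 2 En and Pitx3. The 4 Hox IDs that were tested were Hox7, Hox8_1 and 2 copies of Hox11/13b. Levels are CPM on scaled library sizes, which compare a gene between libraries and not with another gene, since lengths were not used. Differences are log2 fold changes from edgeR's quasi-likelihood test, and called means a Benjamini-Hochberg adjusted p under 0.05 over all genes tested.

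The normal course of these genes came first, from the controls alone. From 12 to 18 hpf 10 members rose and 9 fell, 19 of 47, where 14.9% of all genes were called (8.46% up and 6.47% down). Of 8 endoderm and gut members 3 rose and 3 fell, of 10 mesoderm and coelom members 4 rose and 1 fell, of 5 oral ectoderm members 1 rose and 2 fell, and of 7 aboral ectoderm members 1 fell. The later steps held fewer calls. From 18 to 24 hpf 5 rose and 1 fell, against 4.98% of all genes (4.02% up and 0.961% down), and 1 of the risers was Paxillin. From 24 to 30 hpf 1 fell, against 0.928% (0.212% down). The highest control mean fell at 12 hpf for 16 members, at 18 hpf for 5, at 24 hpf for 10 and at 30 hpf for 16.

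Of the genes that fell, Otx, used in endomesoderm and ectoderm, had 335, 430 and 559 CPM in control embryos at 18 hpf, against 844, 1277 and 1267 at 12 hpf (log2 difference -1.36, SE 0.27, edgeR adjusted p = 0.00156). Not had 127, 150 and 197 CPM at 18 hpf, against 391, 945 and 615 at 12 hpf (-2.04, SE 0.39, adjusted p = 0.00116). Neither gene's libraries overlapped between the 2 times. Eve, a vegetal regulator, fell by 1.65 (SE 0.41, adjusted p = 0.00949), and Lim1, a LIM-class gene of the ectoderm, fell by 1.43 (SE 0.25, adjusted p = 0.000516). Pax4L_1, named only for the Pax family, fell by 1.49 (SE 0.32, adjusted p = 0.00297), Hmx by 1.38 (SE 0.36, adjusted p = 0.013), and the 2 Hox11/13b copies, hindgut genes, by 1.24 and 1.41 (adjusted p = 0.0156 and 0.014). Without control A at 12 hpf both Hox11/13b calls were lost (adjusted p = 0.166 and 0.132). Nk7, the ninth, had an uneven baseline of 2.65, 19.1 and 61.5 CPM at 12 hpf, and its call (adjusted p = 0.0468) was lost in 19 of 23 fits with 1 library left out. Hmx lost its call in 3 of those fits and Eve in 1. In the edgeR fit of the 2 groups alone the calls of Otx (adjusted p = 0.0668), Pax4L_1 (0.0524), Hmx (0.0677), Nk7 and both Hox11/13b copies were lost.

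Several of the genes that rose started from almost no reads. The 2 Lox IDs had 422 and 302 counts over the 3 control libraries at 18 hpf, against 2 and 3 at 12 hpf. These are ratios of 164 (95% exact interval for counting error alone, 45.2 to 1360) and 78.3 (26.6 to 382). Lox levels were 11.4, 15.5 and 10.03 CPM at 18 hpf for L_var_00424. PaxC L_var_03667 had 92 counts at 18 hpf and 0 at 12 hpf, at least 23.9-fold higher when 3 counts over the group are taken as the floor, and Pax6 L_var_16041 had 21 counts and 0, at least 5.45-fold higher on that floor. The exact 95% intervals for counting error put the lower limits at 19.0 and 4.05. Pitx1_1, of the paired-class Pitx family, had 148 counts at 18 hpf against 2 at 12 hpf, a ratio of 57.6 (15.7 to 480). Brn3, a POU gene of neurons, had 17.1, 11.4 and 12.4 CPM at 18 hpf, against 0.548, 0.779 and 0.807 at 12 hpf (log2 difference 4.26, SE 0.51, adjusted p = 9.36e-06). Pax6_1, the second Pax6 ID, rose by 3.42 (SE 0.54, adjusted p = 0.00021), and Brn1/2/4, a POU gene of the gut, by 2.32 (SE 0.63, adjusted p = 0.0154). The Brn1/2/4 call was lost in 2 of 23 fits with 1 library left out. In the edgeR fit of the 2 groups alone Brn1/2/4 (adjusted p = 0.145) and Pax6 L_var_16041 were not called. The second PaxC ID, L_var_03912, also rose (7.83, 6 and 8.24 CPM, against 0.0914, 0.389 and 0.135, adjusted p = 4.9e-06).

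Cdx, the hindgut ParaHox gene, appeared a step later than Lox. It had 1314 counts in control embryos at 24 hpf, against 3 at 18 hpf, a ratio of 468 (160 to 2274). Both PaxC IDs rose again, by 1.8 and 1.68 (adjusted p = 0.0114 and 0.0158), and Emx, an anterior gene, fell by 0.88 (SE 0.25, adjusted p = 0.0426). Without control A or control B at 18 hpf 2 of the 6 calls of this step were left, and without control B at 24 hpf 3 were. From 24 to 30 hpf Pax4L_1 fell to 5.35, 10.8 and 7.03 CPM, against 23.5, 19.6 and 32.6 at 24 hpf (-1.71, SE 0.33, adjusted p = 0.0102), a call that ended without control C at 24 hpf or control A or C at 30 hpf. Without control A at 24 hpf Hbn was called as well.

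**Figure D1:**
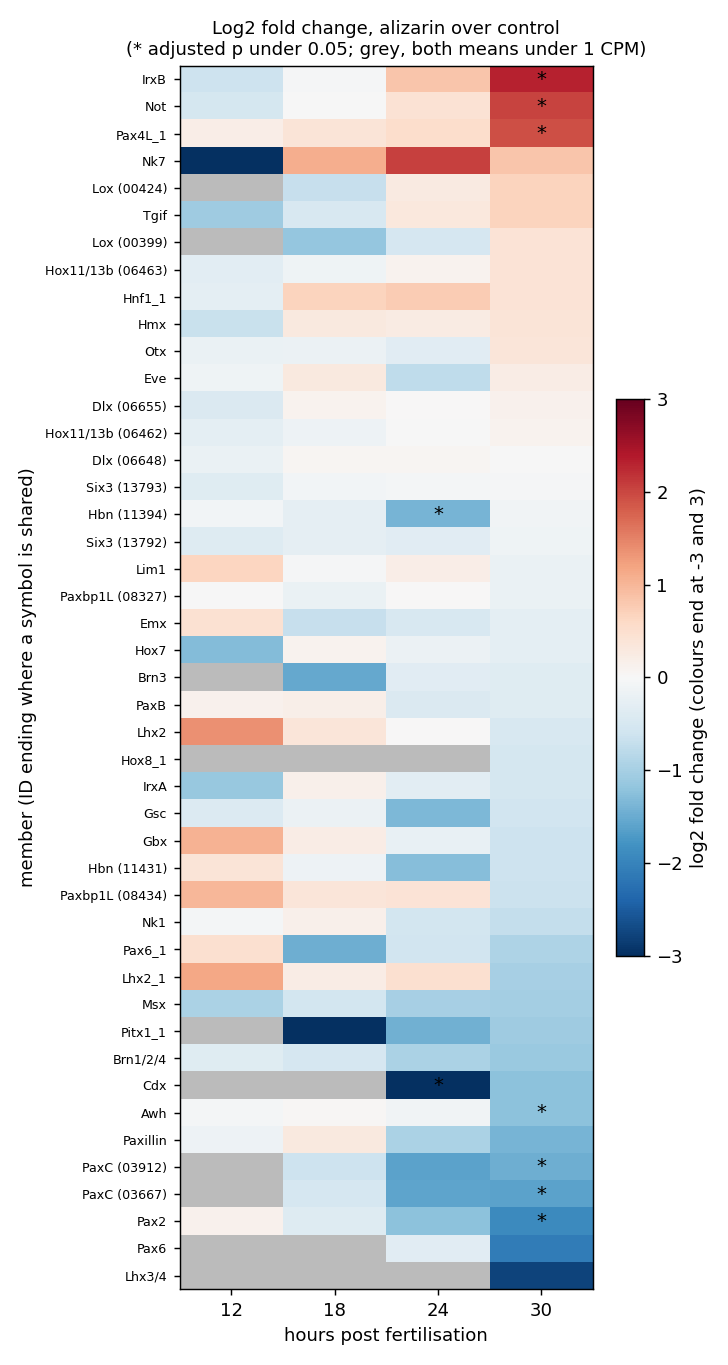
Log2 fold change of alizarin over control embryos for 45 of the 47 tested members (rows, ordered by the value at 30 hpf) at each time in hours post fertilisation (columns), red higher and blue lower in alizarin. Asterisks mark adjusted p under 0.05, and grey cells have both group means under 1 CPM. The 2 called members at 24 hpf are lower in alizarin, and at 30 hpf 3 are higher and 4 lower.

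At 12 hpf no member was called between alizarin and control embryos (0 of 47, against 0.0977% of all genes). The median size of the log2 difference, sign left out, was 0.52 over the members and 0.48 over all genes, so the lack of calls does not show that the groups were alike. DESeq2 called 3 members, and 647 of 16922 genes. Before adjustment 10 members had an edgeR p under 0.05 (5 higher and 5 lower), against 16.1% of all genes. Nk7, an NK-class gene, had 2.68, 2.59 and 4.14 CPM in alizarin embryos, against 2.65, 19.1 and 61.5 in control embryos (log2 difference -3.14, SE 0.76, adjusted p = 0.0774). Its control libraries spread more widely than the groups differed. Tgif, a TALE-class gene, had 16.7, 22.9 and 30.5 CPM in alizarin embryos, against 26.7, 54.5 and 64.9 in control embryos (-1.06, SE 0.31, adjusted p = 0.119). IrxA, an Iroquois gene of the aboral ectoderm, had 110, 57.3 and 244 CPM, against 144, 371 and 398 (-1.15, SE 0.41, adjusted p = 0.177), so its groups overlapped as well. Lhx2 and Lim1 had positive values of 1.36 (SE 0.48, adjusted p = 0.177) and 0.64 (SE 0.24, adjusted p = 0.208). Paxbp1L L_var_08434, no homeobox gene, had 1.0 (SE 0.31, adjusted p = 0.139). All 7 aboral ectoderm members had values below 0 at this time, with a median of -0.68 and none called. These results rest on control A: without it 6 members were called at 12 hpf (among them Hox7, IrxA, Nk7, Tgif and Paxbp1L), and without alizarin C 2 were (Hox7 and IrxA). Over all genes these fits called 911 of 18345 and 106 of 18365, against 18 of 18419 with every library. Groups did not overlap for 3 members, Lim1, Lhx3/4 and Paxbp1L, all higher, against 13.3% of all genes and 7.12% in the higher direction.

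At 18 hpf, with 2 alizarin libraries, no member was called, as for all other genes (0%). Before adjustment 5 members had a p under 0.05, all lower in alizarin, against 5.67% of all genes. DESeq2 called 51 of 16922 genes, among them 1 member, Pitx1_1. That gene had 0 counts in alizarin B and 1 in alizarin C, together 1 against 148 over the 3 control libraries, where it stood at 3.08, 3.92 and 7.16 CPM. The ratio was 0.0105 (95% exact interval for counting error alone, 0.000263 to 0.0592), and the edgeR adjusted p was 0.277. Brn3 had 1.74 and 7.69 CPM in alizarin embryos, against 17.1, 11.4 and 12.4 in control embryos (-1.54, SE 0.48, adjusted p = 0.608). Pax6_1 had 2.7 and 6.01 CPM, against 7.83, 20.6 and 7.64 (-1.47, SE 0.55, adjusted p = 0.723). Emx had 31.8 and 20.6 CPM, against 34.6, 52.3 and 40.7 (-0.70, SE 0.28, adjusted p = 0.764). In each of these 4 genes both alizarin libraries lay below every control library. Pitx1_1, Brn3 and Pax6_1 were among the genes that rose in controls from 12 to 18 hpf, and the 2 comparisons share those control libraries. Lhx3/4 had 0 and 0.197 CPM in alizarin embryos and 0 in all 3 control libraries, so no fold is given. Groups did not overlap for 12 members, 3 higher and 9 lower, against 21.4% of all genes and 10.3% in the lower direction.

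**Figure D2:**
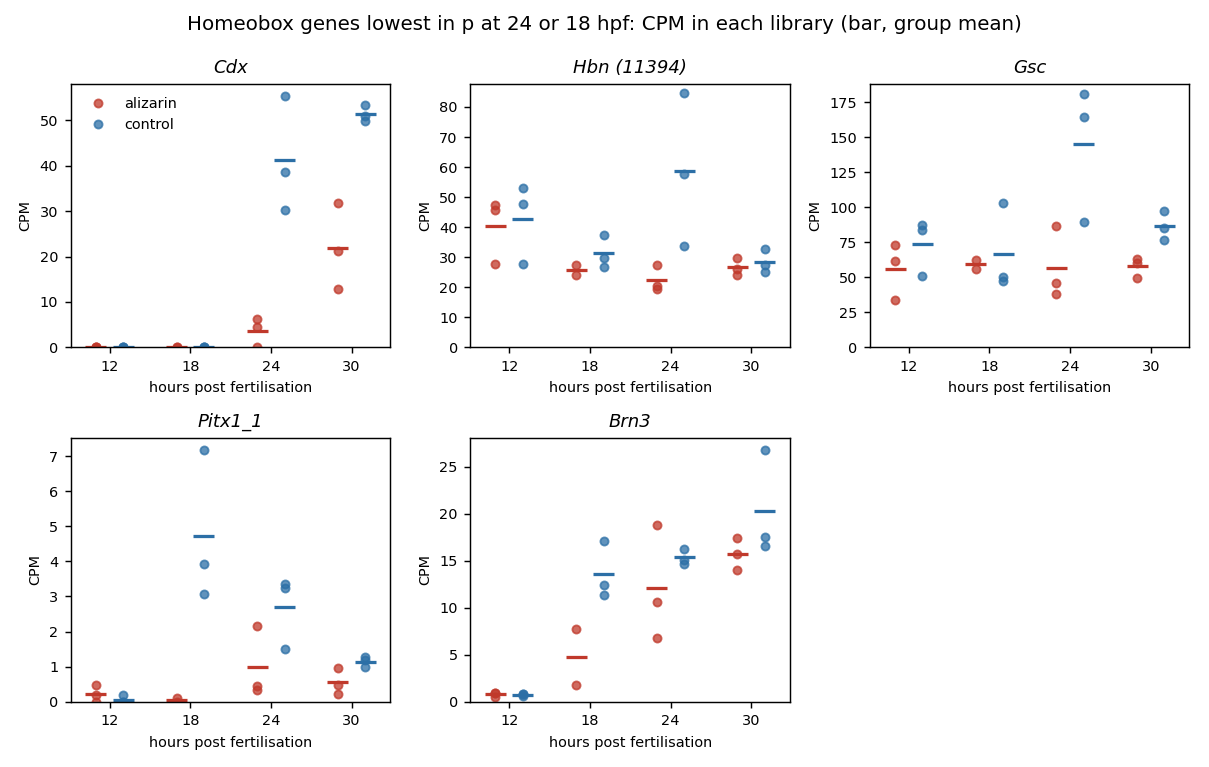
CPM (vertical axis, from 0) in each library for 5 members among those with the smallest p at 24 or 18 hpf, at each time in hours post fertilisation; alizarin libraries are red and left, control libraries blue and right, and bars are group means. At 24 hpf every alizarin library of Cdx, the Hbn copy L_var_11394 and Gsc lies below every control library, and at 18 hpf the same holds for Pitx1_1 and Brn3.

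By 24 hpf a gut gene and an anterior gene were lower in alizarin embryos. The 2 called members, Cdx and Hbn, were both lower, 2 of 47 where 0.842% of all genes were called, 0.722% in the lower direction. Cdx had 4.44, 6.24 and 0 CPM in alizarin embryos, against 30.2, 55.3 and 38.6 in control embryos (log2 difference -3.51, SE 0.74, edgeR adjusted p = 0.0332). Every alizarin library lay well below every control library, and library C had no read. Hbn L_var_11394, the anterior neuroectoderm gene homeobrain, had 19.5, 20.3 and 27.4 CPM, against 33.6, 57.5 and 84.5 (-1.39, SE 0.31, adjusted p = 0.0364). Its groups did not overlap, but the controls spread over more than the gap between them. The other Hbn copy, L_var_11431, had 11.4, 16.2 and 15.9 CPM, against 13.7, 41.0 and 51.4 (-1.29, SE 0.44, adjusted p = 0.212). Its groups overlapped. Summing the 2 copies ended the Hbn call. In the fit of the 2 groups alone neither gene was called (Cdx adjusted p = 0.166, Hbn 0.128), and leaving out 1 library at a time gave 0 to 5 called members, with 0 without alizarin A or B or control B or C at 24 hpf. It was also 0 without alizarin C or control A or C at 30 hpf, and 1 without control B at 30 hpf. It was 5 without alizarin A at 12 hpf, and 4 without alizarin B at 18 hpf or control A at 24 hpf. Without alizarin C at 24 hpf, the library with no Cdx read, Cdx and Gsc were called and Hbn was not.

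Among the next members by p, 3 more were lower and missed the threshold. Both PaxC copies, of a Pax subfamily, had alizarin libraries below all controls. For L_var_03912 they were 9.18, 10.1 and 3.68 CPM, against 18.9, 27.4 and 24.5 (-1.62, SE 0.40, adjusted p = 0.0579), and for L_var_03667 2.26, 4.78 and 2.92 CPM, against 5.59, 11 and 13.3 (-1.58, SE 0.39, adjusted p = 0.0643). Gsc, the oral ectoderm repressor, had 46.0, 38.1 and 86.9 CPM, against 89.5, 164 and 181 (-1.35, SE 0.37, adjusted p = 0.0919). Alizarin C of Gsc came within 3 CPM of the lowest control. All 3 were called by DESeq2, which called 496 of 16420 genes. The fit with replicate letters as a block within each time called both PaxC copies but not Cdx, and 304 of 18419 genes. Over the 47 members the median log2 difference was -0.33, against 0.02 over all genes, with 30 below 0. Groups did not overlap for 13, 12 of them lower, where 17.4% of all genes, and 10.7% in the lower direction, did not overlap.

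At 30 hpf the alizarin effect on these genes went in both directions. Not, IrxB and Pax4L_1 were higher in alizarin than in control embryos, and Pax2, both PaxC copies and Awh were lower. These were 7 of 47 members (3 up and 4 down), where 3.32% of all genes were called (1.12% up and 2.2% down). The remaining 40 did not pass the test. Before adjustment 13 members had a p under 0.05, against 16.7% of all genes. Groups did not overlap for 29 members, 7 higher and 22 lower, against 32.2% of all genes and 17.8% in the lower direction. The median log2 difference over the members was -0.37, against 0.03 over all genes, and 33 of 47 values were below 0.

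**Figure D3:**
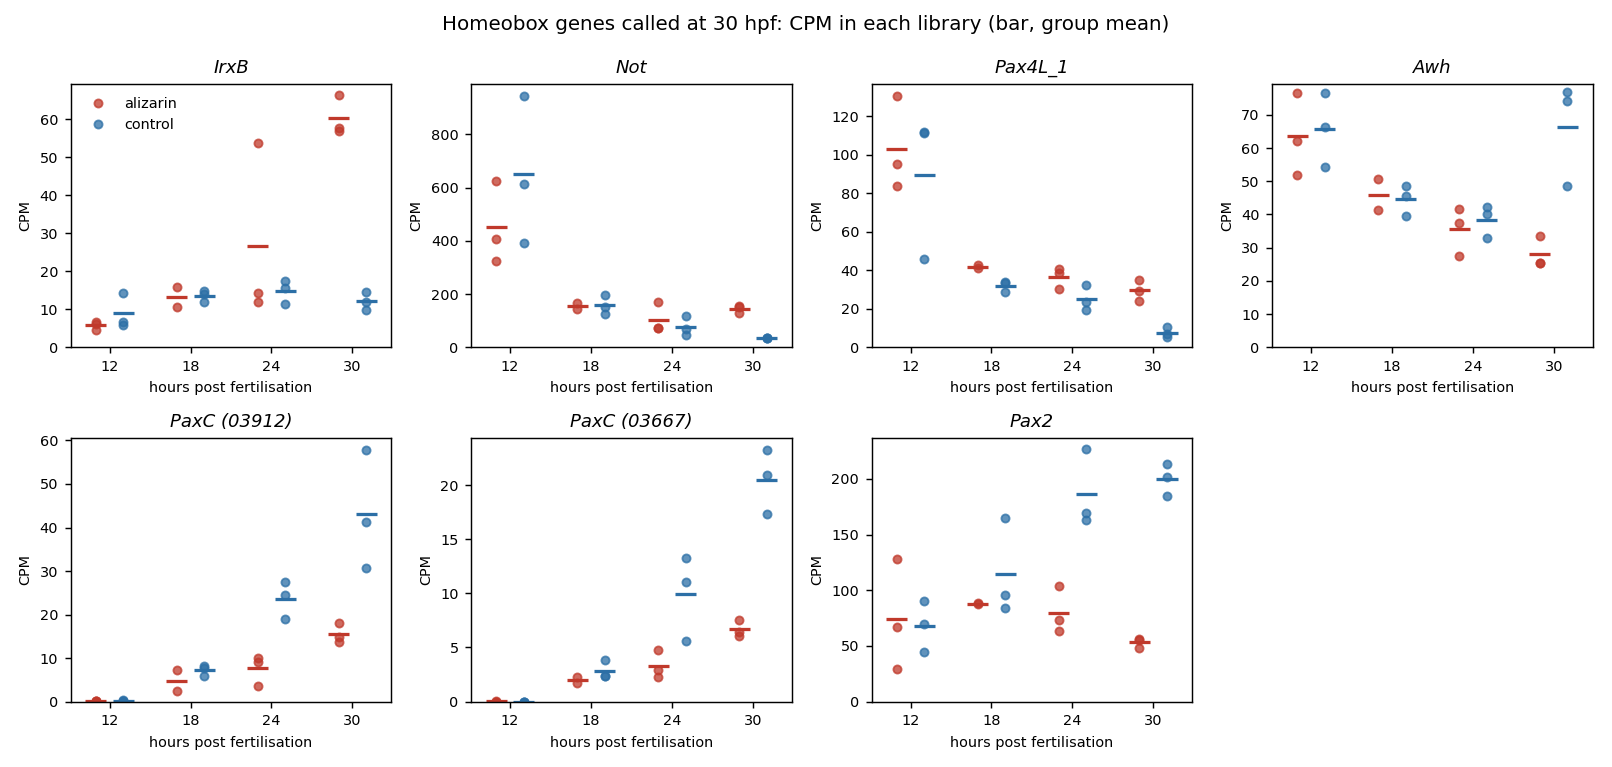
CPM (vertical axis, from 0) in each library for the 7 members called at 30 hpf, at each time in hours post fertilisation; alizarin libraries are red and left, control libraries blue and right, and bars are group means. IrxB, Not and Pax4L_1 are higher in all 3 alizarin libraries at 30 hpf, and Awh, Pax2 and both PaxC IDs are lower.

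Not, a Nodal target of the oral ectoderm, had 155, 131 and 150 CPM in alizarin embryos at 30 hpf, against 34.6, 36.8 and 35.1 in control embryos (log2 difference 2.03, SE 0.39, edgeR adjusted p = 0.00724). The groups lay far apart, with little spread in either. The control mean for Not fell over the course, with 77.1 CPM at 24 hpf and 35.5 at 30 hpf. The alizarin mean was 105 CPM at 24 hpf, where library C (169 CPM) stood above A and B (71.0 and 74.0), and 145 at 30 hpf. IrxB, of the Iroquois family, had 56.8, 57.6 and 66.2 CPM in alizarin embryos, against 14.6, 9.80 and 12.0 in control embryos (2.31, SE 0.45, adjusted p = 0.00754). Control libraries of IrxB never passed 17.5 CPM at any time. In alizarin embryos at 24 hpf library C alone, at 53.7 CPM, was at the level of the 30 hpf libraries, with A at 11.9 and B at 14.3. Pax4L_1 had 24.3, 35.2 and 29.3 CPM, against 5.35, 10.8 and 7.03 (1.94, SE 0.33, adjusted p = 0.00249), so that its groups were apart too. This is the gene whose control level fell at this step, and its alizarin levels of 38.5, 30.5 and 40.7 CPM at 24 hpf overlapped those of 30 hpf. The calls of Not, IrxB, Pax4L_1 and Awh were kept in all 9 alternative fits and in all 23 fits with 1 library left out.

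Pax2, of the Pax2/5/8 class used in mesoderm and neural tissue of many animals, had 48.1, 55.1 and 56.2 CPM in alizarin embryos at 30 hpf, against 201, 184 and 214 in control embryos (log2 difference -1.91, SE 0.39, edgeR adjusted p = 0.0102). No library of either group came near the other. Pax2 was also lower in all 3 alizarin libraries at 24 hpf, with 73.4, 63.1 and 104 CPM, against 163, 169 and 227, though it was not called there (-1.22, SE 0.38, adjusted p = 0.159). The 2 PaxC copies had 18.1, 14.9 and 13.8 CPM (L_var_03912) and 6.08, 6.38 and 7.58 CPM (L_var_03667) in alizarin embryos, against 41.2, 57.7 and 30.7 CPM and 17.3, 23.2 and 21 CPM in control embryos. Their log2 differences were -1.47 (SE 0.39, adjusted p = 0.0435) and -1.61 (SE 0.39, adjusted p = 0.0303). Neither copy overlapped between groups, and reads of the copies may be split between them. Awh, a LIM-homeobox gene named after Drosophila arrowhead, had 25.4, 25.4 and 33.5 CPM, against 74.1, 48.4 and 76.8 (-1.24, SE 0.24, adjusted p = 0.00756). Its control level at 24 hpf had been 33.0, 42.2 and 40.2 CPM, so that the control libraries at 30 hpf were all higher than those at 24 hpf while the alizarin libraries were not. Pax2 and both PaxC calls ended without alizarin A or alizarin C at 30 hpf, where 4 called members were left in each case (Pax2 adjusted p up to 0.0531). The PaxC calls also ended in several other such fits, with adjusted p up to 0.193 for L_var_03912 and 0.111 for L_var_03667.

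By region, 4 of the 7 calls at 30 hpf were in the list for mesoderm and coelom. The oral ectoderm, aboral ectoderm and neuroectoderm lists held the other 3, with 1 each. Of 5 oral ectoderm members 1 was higher in alizarin embryos (Not) and 4 did not pass. Gsc had 60.3, 49.8 and 63.3 CPM in alizarin embryos, against 76.7, 97.1 and 85.3 in control embryos (log2 difference -0.58, SE 0.36, adjusted p = 0.464). It lay lower in every alizarin library, on the side opposite to Not. Nk1 had -0.72 (SE 0.31, adjusted p = 0.235), and Lim1, with overlapping groups, -0.19 (SE 0.25, adjusted p = 0.777). Of 7 aboral ectoderm members 1 was higher (IrxB) and 6 did not pass. Its family member IrxA had 211, 239 and 221 CPM, against 294, 353 and 315 (-0.52, SE 0.40, adjusted p = 0.575), lower in every alizarin library. Msx, a target of BMP signalling, had 8.63, 8.44 and 7.21 CPM, against 16.8, 17.5 and 14.9 (-1.02, SE 0.54, adjusted p = 0.365). Msx had also been lower in all 3 alizarin libraries at 24 hpf (7.75, 6.78 and 8.66 CPM, against 14.0, 15.3 and 16.9). Hmx, Hox7 and the 2 Dlx IDs had values between -0.29 and 0.38.

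Of 9 members of the anterior neuroectoderm and ciliary band 1 was lower in alizarin embryos at 30 hpf (Awh) and 8 did not pass. The 2 Six3 copies, anterior neuroectoderm genes, had 37.4, 36.9 and 34.1 CPM and 26.2, 23.1 and 23.6 CPM in alizarin embryos, against 39.3, 41.2 and 38.6 CPM and 23, 28.2 and 23.3 CPM in control embryos. Their log2 differences of -0.13 and -0.03 had 95% intervals of -0.70 to 0.43 and -0.62 to 0.56. Hbn L_var_11394, called at 24 hpf, had 29.6, 26.1 and 24.1 CPM at 30 hpf, against 27.3, 32.7 and 25.1 (-0.09, 95% interval -0.75 to 0.56). Its control level at 30 hpf was 28.4 CPM on average, against 58.6 at 24 hpf. Otx had 607, 459 and 474 CPM, against 403, 403 and 397 (0.36, SE 0.26, adjusted p = 0.546), higher in every alizarin library. Emx, Lhx2 and Lhx2_1 had values of -0.29, -0.48 and -1.01, none called.

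None of the 8 endoderm and gut members was called at 30 hpf, against 1 (Cdx) at 24 hpf. Cdx had 31.8, 12.9 and 21.3 CPM in alizarin embryos at 30 hpf, against 49.8, 51.1 and 53.5 in control embryos (log2 difference -1.23, SE 0.67, adjusted p = 0.386). The alizarin libraries were thus above their own 24 hpf level and still below every control library. Brn1/2/4 had 19.3, 15.6 and 19.2 CPM, against 34.3, 44.7 and 37.9 (-1.11, SE 0.58, adjusted p = 0.346). Lox L_var_00424 lay the other way, with 22.1, 19.3 and 17.4 CPM, against 10.2, 12.6 and 13.9 (0.67, SE 0.45, adjusted p = 0.493). Hnf1_1, Eve, the second Lox copy and both Hox11/13b copies had values between 0.11 and 0.42, with none called. The 4 Hox IDs gave no call at any of the 4 times, and 10 more were too low to test.

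Of 10 members listed for mesoderm and coelom, 7 were the Pax IDs tested. At 30 hpf 1 of the 10 was higher in alizarin embryos and 3 were lower, all of them Pax. The 7 Pax IDs, both PaxC copies and both Pax6 IDs among them, had a median log2 difference of -1.47. With IDs of the same symbol summed, 6 of 42 members were called at 30 hpf, 3 higher and 3 lower, and 610 of 18414 genes. Pax6_1 had 9.43, 14.0 and 11.5 CPM in alizarin embryos, against 21, 22.4 and 22.7 in control embryos (-0.92, SE 0.46, adjusted p = 0.326), and Pax6 L_var_16041, at low counts, had 0.320, 0.570 and 0.489 CPM, against 2.31, 2.07 and 1.67 (-2.09, SE 0.88, adjusted p = 0.227). PaxB had 87.8, 93.0 and 83.0 CPM, against 118, 120 and 102 (-0.37, SE 0.26, adjusted p = 0.531). These last 3 genes lay lower in every alizarin library without passing the test. In the fit of the 2 groups alone at 30 hpf, 15 of 45 members were called, where 2001 of 15273 genes were. The added 8 were all lower in alizarin, among them Brn1/2/4, Cdx, Msx, Pax6, Pax6_1 and Paxillin.

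The remaining 10 tested members stand in no regional list, and none was called between treatments at any time. At 30 hpf Tgif had 66.5, 59.2 and 76.6 CPM in alizarin embryos, against 46.9, 31.2 and 48.9 in control embryos (log2 difference 0.67, SE 0.31, adjusted p = 0.269), on the opposite side from its value at 12 hpf. Brn3, low in alizarin at 18 hpf, had 14.1, 17.4 and 15.8 CPM, against 16.6, 26.8 and 17.5 (-0.36, SE 0.40, adjusted p = 0.724), so that its groups overlapped. Nk7 had 19.1, 20.4 and 7.26 CPM in alizarin embryos at 24 hpf, against 3.43, 2.91 and 4.90 (2.06, SE 0.73, adjusted p = 0.235), and overlapped again at 30 hpf. Pitx1_1 and Lhx3/4, both under 3 CPM in every library at 30 hpf, and Gbx and Hox8_1 had values below 0. Of the 3 that are no homeobox genes, Paxillin had 2.24, 1.94 and 2.2 CPM, against 6.72, 5.44 and 4.53 (-1.39, SE 0.42, adjusted p = 0.0745).

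Averaged over the 4 times, 3 members were called, where 5.04% of all genes were (2.11% up and 2.93% down). Pax4L_1 was higher (0.77, SE 0.16, adjusted p = 0.00879), and Pax2 (-0.85, SE 0.20, adjusted p = 0.0162) and PaxC L_var_03912 (-1.08, SE 0.29, adjusted p = 0.0354) were lower. Gsc (-0.62, adjusted p = 0.0583), Msx (-0.87, adjusted p = 0.0729) and Pitx1_1 (-1.82, adjusted p = 0.0806) came next. The PaxC call was lost in 10 of 23 fits with 1 library left out (adjusted p up to 0.175). Without control A at 12 hpf 9 members were called (and 1270 of 18345 genes, against 928 of 18419), and without alizarin B at 18 hpf 1 was. Without alizarin A or C at 12 hpf, alizarin C at 18 hpf or control A at 24 hpf there were 5. The F test of whether the alizarin effect differed between times called no member (0 of 47, against 0.505% of all genes). Before adjustment 14 had a p under 0.05 (12.4% of all genes). DESeq2 called 9 members, and 731 of 16922 genes. The smallest values of the F test belonged to Nk7 (adjusted p = 0.0722), Not (0.0931), IrxB (0.0959), Pitx1_1 (0.136), Tgif (0.153) and Awh (0.16). Without alizarin C at 24 hpf this test called IrxB and Not. Without control A at 12 hpf it called Nk7, Not and Tgif, and without alizarin B at 12 hpf it called Pax2.

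Setting the alizarin embryos beside earlier controls gave a second view of the same libraries. Developmental age was estimated from 4436 genes whose control means rose at every step or fell at every step, members left out. It was 23.1 to 26.2 h in alizarin libraries at 30 hpf, against 29.4 to 30.4 h in control libraries. At 24 hpf it was 20.1 to 20.9 h, against 23.5 to 24.9 h, and at 18 hpf 15.8 to 17.6 h, against 17.4 to 18.8 h. At 12 hpf alizarin libraries (11.7 to 12.3 h) lay within the controls (11.3 to 12.6 h). These ages use control means that hold the control libraries themselves. With libraries of the same letter left out of those means, the ages at 12 hpf were 11.85 to 12.5 h in alizarin libraries, against 11.9 to 13.55 h in control libraries, and the difference of the group means was -0.48 h, against -0.02 h before. At 30 hpf this difference was -5.25 h, against -5.22 h before. The alizarin mean at 30 hpf lay between the control means of 24 and 30 hpf for 8 of 47 members, with 11 above both and 28 below both, beside 29.3%, 38.0% and 32.7% of all genes. At 24 hpf, 21 of 47 alizarin means lay between the control means of 18 and 24 hpf, with 7 above and 19 below, beside 46.8%, 27.8% and 25.4% of all genes.

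**Figure D4:**
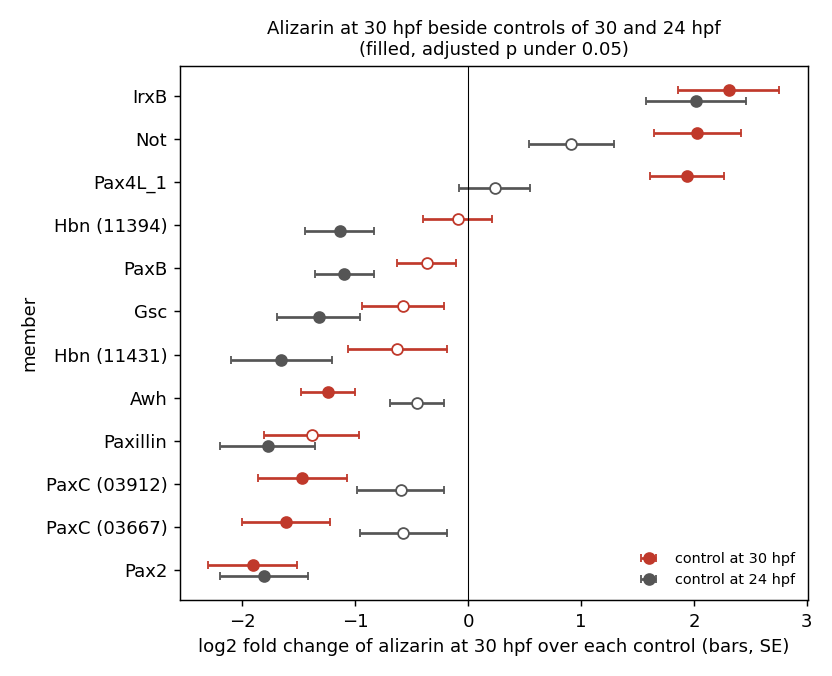
Log2 fold change (horizontal axis, with SE bars) of alizarin embryos at 30 hpf over control embryos at 30 hpf (red) and at 24 hpf (grey) for the 12 members called in either comparison; filled points have an adjusted p under 0.05. IrxB is higher and Pax2 lower against both controls, while Not, Pax4L_1, Awh and both PaxC IDs are called against the 30 hpf control alone.

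Against the control of 24 hpf, alizarin embryos at 30 hpf had 7 called members, 1 higher and 6 lower, where 5.45% of all genes were called (1.11% up and 4.34% down). These comparisons share the alizarin libraries of 30 hpf with those above. IrxB was higher against both (2.02, SE 0.44, adjusted p = 0.0136, against the control of 24 hpf), and Pax2 was lower against both (-1.81, SE 0.39, adjusted p = 0.0128). Pax4L_1 had 24.3, 35.2 and 29.3 CPM, against 23.5, 19.6 and 32.6 in the 24 hpf controls, and was not called. Awh and the PaxC copies were not called against that control either. Hbn L_var_11394 (-1.14, adjusted p = 0.0361), Hbn L_var_11431 (-1.66, adjusted p = 0.0356), PaxB (-1.10, adjusted p = 0.0211), Gsc (-1.33, adjusted p = 0.0395) and Paxillin (-1.78, adjusted p = 0.0204) were lower against the 24 hpf control and not called against the 30 hpf control. The fit with replicate letters as a block within each time ended the call of Hbn L_var_11394 (adjusted p = 0.0516). Hbn, Gsc and PaxB had their highest control mean among the later 3 times at 24 hpf, and the alizarin means of these 4 IDs at 24 and 30 hpf were all below it. Leaving out control C at 24 hpf or alizarin C at 30 hpf left 0 calls, control B at 24 hpf or alizarin A at 30 hpf left 1, and alizarin B left 3. Alizarin embryos at 24 hpf had 1 called member against the control of 18 hpf, where 0.152% of all genes were called (0.0163% down). This was Emx, with 17, 16.9 and 15.9 CPM, against 34.6, 52.3 and 40.7 (-1.36, SE 0.25, adjusted p = 0.0247). That call ended without any 1 of the 3 controls of 18 hpf, or without any 1 of the alizarin libraries of 24 hpf, 1 other member (Cdx) being called without alizarin C.

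The genes that work with these regulators gave a mixed picture. A list of 42 signalling and transcription factor symbols outside the homeobox class matched 45 IDs, of which 43 were tested. At 24 hpf 1 was called (the T-box gene Tbr, higher in alizarin embryos), where 0.842% of all genes were. At 30 hpf 5 were higher and 1 lower, where 3.32% of all genes were called (1.12% up and 2.2% down). The higher ones were Tbr, the 2 apical FoxQ2_1 copies, the BMP inhibitor Chordin L_var_21973 and the ligand Wnt8. The lower one was SoxE, of the Sox family. FoxQ2_1 L_var_17029, an anterior forkhead gene, had a mean of 129 CPM in alizarin embryos, against 3.73 in control embryos (log2 difference 5.11, SE 0.65, adjusted p = 0.000239), and Wnt8 had 350 CPM, against 137 (1.35, SE 0.37, adjusted p = 0.0489). The list's median log2 difference at 30 hpf was 0.17, with 24 of 43 above 0. Nodal itself was among those not called. Of 18 further IDs tested on a list of homeobox genes outside the name rule (which holds 1 ID of the bHLH gene Hey), 1 was called at 30 hpf: Prox1 L_var_13096, lower, with a mean of 1.34 CPM, against 5.89 (-2.15, SE 0.52, adjusted p = 0.027). That list's median was -0.61, with 13 of 18 below 0, and none was called at 12, 18 or 24 hpf.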

How the data were processed

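Whole-embryo RNA was extracted with TRIzol and made into mRNA libraries with a DNBSEQ kit, per the labels' protocols. Reads were aligned with STAR 2.7.1a, per the submitters' processing notes. The build, annotation, counting tool and use of strand are not given in the sources used here, so reads of antisense or overlapping genes and of near-identical copies (26 member IDs share 12 symbols) cannot be told apart. The authors deposited raw read counts per gene, per the file headers. The table repeats a gene for each protein match and was reduced to 27232 IDs, with 0 conflicts. For 1 ID the counts could not be read, and 27231 were used. Columns were joined to samples by name, with 0 left unmapped. None of the IDs was in the RefSeq table (0 matched), so no position or sequence is given. Some members count in the totals and are not reported here by name.

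Genes were filtered with filterByExpr (minimum count 10, 8 groups), scaled with TMM, and fitted with 8 group means over 23 libraries by edgeR's robust quasi-likelihood method (residual df 15, common BCV 0.423). Each SE is the fold change (log2, unsigned) over the square root of F. CPM use TMM library sizes. Ratios with 0 to 3 counts in a group use exact binomial 95% intervals or a floor of 3 counts over the group, and both cover counting error alone. Age is the least-squares fit of each library to the control means on a grid of 0.05 h, over genes changed at least 2-fold. The scripts were tested on simulated data. The fits used edgeR 4.0.16, limma 3.58.1 and DESeq2 1.42.0 in R 4.3.3. Values and plots used scipy 1.17.1, pandas 2.3.3, matplotlib 3.10.9 and numpy 2.4.6 in Python 3.11.15.

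The members, lists and comparisons were chosen with earlier results of these data known. Named genes are the called members of each alizarin comparison filled up to 6 by p, the 5 largest called rises and falls of each control step with at least 2 CPM, the 5 members of highest level at each control time, and up to 5 calls in each direction against earlier controls. Other members were named after their values were seen, to account for each regional list. Alternatives were DESeq2, RLE and upper quartile scaling, no filter, a stricter filter (1 CPM), replicate letters as a block, only the groups compared, IDs of a symbol summed, and each library left out. Over 11 same-letter pairs the correlation of deviations ran from -0.242 to 0.663, over 0.1 in 7. At 30 hpf it was 0.503, 0.663 and 0.570 for A, B and C, and at 24 hpf -0.242, 0.192 and -0.052. The main fit did not pair the samples by letter, so pairing at 30 hpf enters only the alternatives with letters as a block.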

Additional observations from a re-analysis of the deposited data

How the results depend on the processing

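Counts of called members depended on the fit as follows. With DESeq2 they were 3 at 12 hpf, 1 at 18 hpf, 6 at 24 hpf, 9 for the mean effect and 9 for the difference between times. They were 2 for control 30 minus 24 hpf and 2 for alizarin 24 minus control 18 hpf. DESeq2 also called more of all genes: 647 of 16922 at 12 hpf, 51 of 16922 at 18 hpf and 496 of 16420 at 24 hpf. It called 1688 of 18938 for the mean effect, 731 of 16922 for the difference between times, and 508 of 17928 and 215 of 17426 for the last 2. With only the groups compared they were 0 at 24 hpf, 15 at 30 hpf, 11 for control 18 minus 12 hpf and 0 for alizarin 24 minus control 18 hpf. Over all genes these fits called 150 of 15746, 2001 of 15273, 981 of 15042 and 3 of 15697. At 24 hpf upper quartile factors and no filter each left 1. The same-letter correlations were 0.503 to 0.663 at 30 hpf and lower at the other times, from -0.242 to 0.192. At 24 hpf the replicate block called 4 members, over all times (186 of 18419 genes) or within each time (304 genes). Within each time it called 1 member for the difference between times (114 genes) and 2 for control 30 minus 24 hpf (220 genes). At 30 hpf, where the letter correlations were highest, the block within each time called 8 members (the same 7 and Paxillin) and 739 of 18419 genes.

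With 1 library left out, counts ran from 0 to 6 at 12 hpf, stayed at 0 at 18 hpf, and ran from 0 to 5 at 24 hpf, 4 to 8 at 30 hpf, 1 to 9 for the mean effect and 0 to 3 for the difference between times. They ran from 14 to 20, 2 to 8 and 0 to 2 for the 3 control steps, 0 to 1 for alizarin 24 minus control 18 hpf and 0 to 8 for alizarin 30 minus control 24 hpf. Upper quartile scaling moved the median of all genes at 30 hpf to 0.106. None of the 61 results chosen by the rule for named genes changed direction in any of these fits that gave it an adjusted p. They were chosen from the same libraries, most by small p, so a kept direction is no independent check. Those of the F test for differences between times are among the 61 and have no direction to change. The cause of the changes was not tested.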
